A study of Mus musculus with 12 samples.

Results

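A set of 10 genes of the machinery that decides whether a cell passes from G1 into S phase were followed in muscle stem cells (MuSCs, or satellite cells) and in the myoblasts grown from them. They comprise 4 CDK inhibitors (Cdkn1a, Cdkn1b, Cdkn1c and Cdkn2c), 3 D cyclins (Ccnd1, Ccnd2 and Ccnd3) and 3 genes of the retinoblastoma family (Rb1, Rbl1 and Rbl2). They were chosen by gene name, and all 10 were present among the 16503 genes listed for the culture comparison and the 16169 listed for the genotype comparison. All 10 also passed the filter on low values in both, which asked for 10 or more normalized counts in 3 or more libraries of the comparison.

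RNA-seq was performed on 12 libraries in 4 groups of 3, each made from 1000 cells. One set of libraries held WT MuSCs sorted fresh from 3 mice and myoblasts from the same 3 mice after 3 days in growth medium (Ham's F10 with serum and bFGF). The other set held freshly sorted MuSCs of males aged between 5 and 6 weeks, 3 of them WT and 3 Nedd4L-cKO. The knockout mice were Nedd4L fl/fl with Pax7 cre/+ on a C57BL/6 background, so that exon 15 of this E3 ubiquitin ligase gene was removed in cells that had expressed Pax7. Whether these WT mice carried the Cre allele, and the age of the mice used for culture, are not given in the sources used here. The paper states that its in vitro work used primary myoblasts from males. It gives no sex or strain for the culture set by itself. MuSCs were gated on ITGA7 and Hoechst, with cells bearing CD31, CD45, CD11b or SCA1 excluded. Expression is given as RPM, normalized counts per 1e+06 of the mean library total. Normalized counts summed to 33189802 to 37595659 per library in the culture set and to 40323468 to 50687122 in the genotype set, and the read depth behind them is unknown. Because the 2 sets were normalized separately, no test was made across them.

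In the textbook account, D cyclins bind CDK4 and CDK6 and direct them to phosphorylate Rb family proteins. Unphosphorylated Rb holds E2F transcription factors inactive, and the relatives p107 (Rbl1) and p130 (Rbl2) bind repressor E2Fs. In resting cells p130 is the usual partner of the MuvB core in the DREAM complex, which keeps cell cycle genes silent. The Cip/Kip inhibitors p21 (Cdkn1a), p27 (Cdkn1b) and p57 (Cdkn1c) bind cyclin-CDK complexes broadly, while p18 (Cdkn2c) belongs to the INK4 family that binds CDK4 and CDK6 alone. In muscle, p21 and p57 are also known for the cell cycle exit of differentiating myoblasts, and cyclin D3 for its rise during that exit. Most of these proteins are further controlled by degradation and phosphorylation, which RNA levels do not measure.

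Promoter sequences are shown for 5 members, as they hold the motif matches described here. RefSeq promoters on GRCm38.p6 were at hand for 6 members with 9 start sites, and those of Cdkn1c, Ccnd1, Ccnd2 and Rb1 were not analysed here. The 250 bases before each start were searched on both strands for the E2F site (TTTGGCGC or TTTCGCGC), the cell cycle homology region CHR (TTTGAA), the CCAAT box (CCAAT), the GC box (GGGCGG), the TATA box (TATAAA) and, by its consensus, the p53 site. A p53 site needed a pair of its decamers at most 13 bases apart, with at most 1 mismatch outside their cores. Capitals mark every match, also where it lies on the other strand, and no matches overlapped.
Cdkn1a, first start, chr17:29090729-29090978, plus strand: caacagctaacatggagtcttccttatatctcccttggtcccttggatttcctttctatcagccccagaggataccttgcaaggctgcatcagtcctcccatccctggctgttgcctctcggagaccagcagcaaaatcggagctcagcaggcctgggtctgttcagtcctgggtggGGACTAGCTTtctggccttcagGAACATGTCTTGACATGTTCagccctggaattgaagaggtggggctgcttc
Cdkn1b, chr6:134920151-134920400, plus strand: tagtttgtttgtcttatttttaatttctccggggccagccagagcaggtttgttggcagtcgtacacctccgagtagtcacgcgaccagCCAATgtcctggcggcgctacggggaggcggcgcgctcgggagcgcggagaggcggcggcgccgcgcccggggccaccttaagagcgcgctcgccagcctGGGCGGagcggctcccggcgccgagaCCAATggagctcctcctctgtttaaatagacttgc
Ccnd3, second start, chr17:47593217-47593466, plus strand: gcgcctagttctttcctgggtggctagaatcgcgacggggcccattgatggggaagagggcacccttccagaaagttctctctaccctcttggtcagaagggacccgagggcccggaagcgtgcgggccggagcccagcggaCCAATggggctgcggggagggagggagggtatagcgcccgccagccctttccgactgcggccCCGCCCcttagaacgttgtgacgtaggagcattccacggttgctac
Rbl1, chr2:157204535-157204784, minus strand: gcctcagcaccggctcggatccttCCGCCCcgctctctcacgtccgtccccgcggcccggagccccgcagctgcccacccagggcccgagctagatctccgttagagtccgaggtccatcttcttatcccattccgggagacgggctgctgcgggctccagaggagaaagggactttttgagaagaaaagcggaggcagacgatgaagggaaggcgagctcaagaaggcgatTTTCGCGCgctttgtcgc
Rbl2, chr8:91069807-91070056, plus strand: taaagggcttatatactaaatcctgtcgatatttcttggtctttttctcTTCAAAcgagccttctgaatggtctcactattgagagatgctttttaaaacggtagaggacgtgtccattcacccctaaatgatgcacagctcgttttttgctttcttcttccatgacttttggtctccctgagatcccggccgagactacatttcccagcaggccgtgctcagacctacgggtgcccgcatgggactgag
The first start of Cdkn1a was the only one of the 9 with a p53 site, and its decamers began 73, 51 and 41 bases before the start. Among all 32851 promoters searched in the same way, 0.356% held such a site. The p53 site was added to the search after the values were seen, so that its rarity is a description only. Of the 6 members searched, Rbl1 alone had an E2F site, which began 18 bases before the start, against 0.654% of all promoters. Rbl2 held the only CHR, 201 bases before the start, where 16% of all promoters hold one. Cdkn1b had 2 CCAAT boxes and Ccnd3 had 1 at its second start, and 33.8% of all promoters had at least 1. GC boxes were found in 32.7% of all promoters and at 1 or more starts of each of the 6 members except Rbl2. None of the 6 had a TATA box, which 12.4% of promoters held. These matches are descriptions of the letters and do not show binding.

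The first comparison asked how the members differ between freshly sorted MuSCs and 3-day myoblasts of the same mice. Of the 10, 7 differed at the adjusted threshold of 0.05 (limma on log2(RPM + 1), Benjamini-Hochberg over 15345 genes), with 3 higher and 4 lower in myoblasts. The same test called 42.8% of all tested genes, so that a large share of the transcriptome moved with culture. Cdkn1a, Ccnd2 and Ccnd3 rose. Cdkn1b, Cdkn1c, Cdkn2c and Rbl2 fell. Higher calls made up 22.2% of all tested genes and lower calls 20.6%. The groups did not overlap for the same 7 members, beside 55.2% of all genes. The median log2 fold change of the 10 members was 0.0045, beside 0.039 over all tested genes. Each library pools many cells, so that a different share of cells with a transcript and a different amount per cell cannot be told apart.

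**Figure D1:**
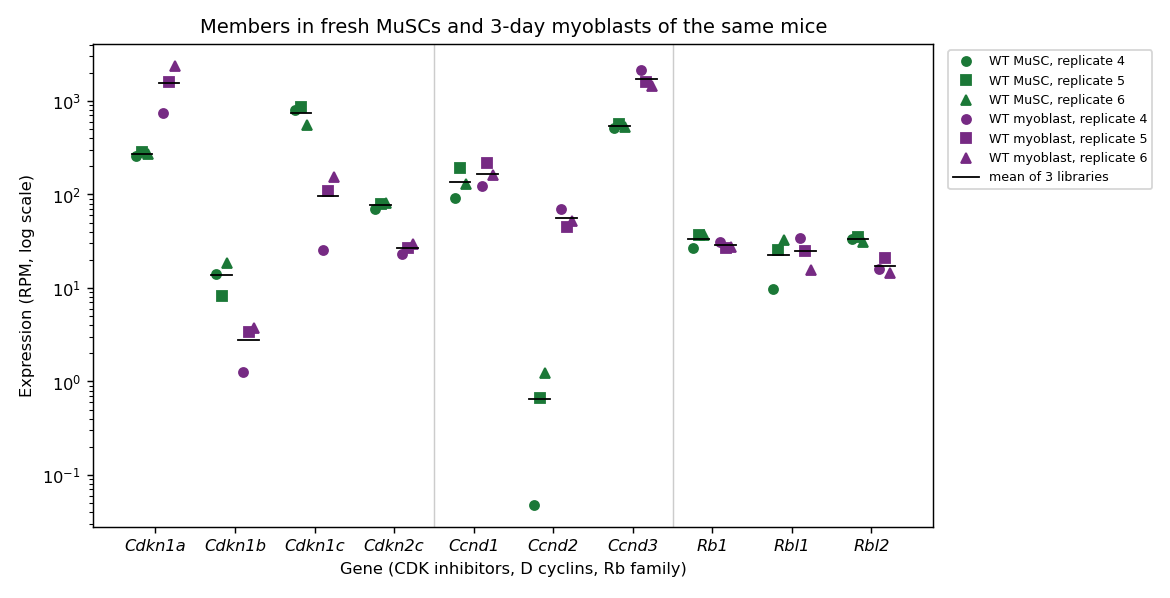
Expression of the 10 members (RPM, log scale) in 3 WT MuSC libraries (green) and 3 WT myoblast libraries (purple), with replicates of the same number from the same mouse and a black line at each mean. The groups are apart for the 4 CDK inhibitors, Ccnd2, Ccnd3 and Rbl2, and overlap for Ccnd1, Rb1 and Rbl1.

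All 4 CDK inhibitors changed, but not in the same direction. Cdkn1a, which encodes p21 and is a classical target of p53, was at 255, 286 and 274 RPM in the MuSCs of replicates 4, 5 and 6 and at 740, 1612 and 2371 RPM in their myoblasts. Every myoblast library lay above every MuSC library, and the myoblasts were spread far more widely. The means were 272 ± 15.2 and 1575 ± 816 RPM (SD, n = 3), and the rise was 2.38 on the log2 scale (SE 0.36, adjusted p = 0.000990, limma).

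Cdkn1c, which encodes p57, moved the other way. It was at 799, 862 and 551 RPM in MuSCs and at 25.5, 109.8 and 154 RPM in myoblasts, with a log2 fold change of -3.24 (SE 0.56, adjusted p = 0.00200). No myoblast library came near the MuSCs, and the lowest was replicate 4. Without that library the log2 fold change was -2.47 (adjusted p = 6.14e-05).

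Cdkn1b, which encodes p27, was the lowest of the 4 inhibitors in both states, also per kb. Its level was 14.0, 8.28 and 18.6 RPM in MuSCs and 1.26, 3.36 and 3.69 RPM in myoblasts, and it fell by 1.96 on the log2 scale (SE 0.42, adjusted p = 0.00559). Cdkn2c, which encodes the INK4 inhibitor p18, went from 69.5, 80.0 and 81.5 RPM to 23.3, 26.9 and 29.6 RPM, and fell by 1.50 on the log2 scale (SE 0.21, adjusted p = 0.000564). The 3 mice were alike for Cdkn2c, with log2 differences of -1.54, -1.54 and -1.43, whereas those for Cdkn1b ran from -2.74 to -1.09.

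The opposite moves of Cdkn1a and Cdkn1c changed which inhibitor made up most of the class. To compare levels between genes, RPM was divided by the length of each gene's canonical transcript. Shares and ranks per kb depend on this choice, as transcripts of the same gene differ in length. By this measure Cdkn1c held 68.3% ± 5.68 of the summed level of the 4 inhibitors in MuSCs and 5.19% ± 1.69 in myoblasts (SD, n = 3). Cdkn1a held 25.9% ± 4.29 in MuSCs and 93.4% ± 1.05 in myoblasts. The summed level itself was 462 to 627 RPM per kb in MuSCs and 407 to 1325 RPM per kb in myoblasts, so that the groups overlapped. Cdkn1b held the smallest share in both, at 0.571% and 0.0702%. These shares follow from the levels above and were not tested.

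**Figure D2:**
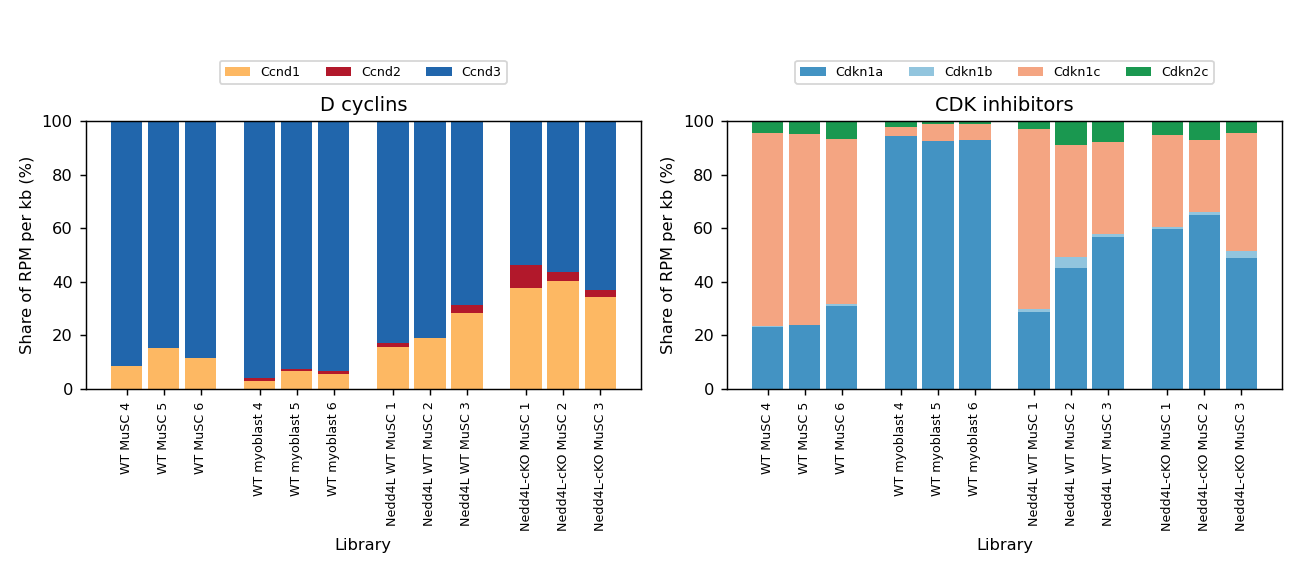
Share of each gene in the summed RPM per kb of its class (percent) in each of the 12 libraries, for D cyclins (left) and CDK inhibitors (right). Cdkn1a takes the place of Cdkn1c between MuSCs and myoblasts, and the Ccnd3 share is 53.7% to 63.1% in Nedd4L-cKO MuSCs against 68.8% to 82.9% in their WT group.

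Among the D cyclins, Ccnd2 showed the largest difference of the 10 members. It was barely present in MuSCs, at 0.0479, 0.668 and 1.24 RPM, and reached 70.6, 44.7 and 51.9 RPM in myoblasts. The groups were far apart, with a log2 fold change of 5.14 (SE 0.37, adjusted p = 1.77e-05). With MuSC levels this near 0 the size depends on the pseudocount, and 0.1 in place of 1 RPM gave 6.68. Its lowest library was MuSC replicate 4, at 1.69 normalized counts, under the 10 asked by the filter on low values. MuSC replicates 5 and 6 and all myoblast libraries reached the 10.

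Per kb, Ccnd3 was the most abundant D cyclin in all 12 libraries. In the Nedd4L-cKO libraries this rests on the division by length. In RPM, Ccnd1 was above Ccnd3 in each of them, at 109, 150 and 178 against 82.6, 112 and 174 RPM. In culture, Ccnd3 was at 509, 573 and 522 RPM in MuSCs and at 2155, 1579 and 1447 RPM in myoblasts. Each of the 3 mice showed the increase, with log2 differences of 2.08, 1.46 and 1.47. The log2 fold change was 1.67 (SE 0.19, adjusted p = 0.000200).

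Ccnd1, the D cyclin best known as a target of mitogen signalling, gave no call. Its levels were 90.9, 192 and 128 RPM in MuSCs and 124, 216 and 160 RPM in myoblasts, and the groups overlapped. All 3 mice had a higher value in myoblasts than in MuSCs, by 0.17 to 0.45 on the log2 scale. The log2 fold change was 0.31 with a 95% interval from -0.38 to 1.00 (adjusted p = 0.439).

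Per kb, Ccnd3 made up 88.2% ± 3.25 of the D cyclins in MuSCs and 94.0% ± 1.87 in myoblasts, and Ccnd1 most of the rest at 11.8% ± 3.23 and 5.05% ± 1.93. Ccnd2, for all its increase, made up 0.969% in myoblasts. That share rests on its canonical transcript of 6330 bases, where its basic transcripts run from 771 to 6330 bases. The summed level of the class was 276 to 334 RPM per kb in MuSCs and 768 to 1112 RPM per kb in myoblasts.

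The Rb family showed smaller differences. Rbl2, which encodes the p130 protein of resting cells, was at 33.5, 35.4 and 31.2 RPM in MuSCs and at 15.9, 20.9 and 14.3 RPM in myoblasts. Myoblasts were below MuSCs in each mouse, and Rbl2 fell by 0.94 on the log2 scale (SE 0.25, adjusted p = 0.0148). This call was lost without MuSC replicate 5 (adjusted p = 0.0555) or without myoblast replicate 6 (adjusted p = 0.0614). Over all alternatives its adjusted p was between 0.0118 and 0.0614.

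Rb1 was at 26.9, 37.3 and 37.1 RPM in MuSCs and at 31.4, 26.9 and 27.5 RPM in myoblasts. The groups overlapped, and the log2 fold change was -0.22 with a 95% interval from -0.76 to 0.32 (adjusted p = 0.483). Rbl1, which encodes p107 and is itself an E2F target, was at 9.77, 25.4 and 32.9 RPM in MuSCs and at 34.6, 25.1 and 15.7 RPM in myoblasts. The 3 mice did not move together, with log2 differences of 1.73, -0.02 and -1.02 in replicates 4, 5 and 6. The log2 fold change of Rbl1 was 0.23 with a 95% interval from -0.81 to 1.27 (adjusted p = 0.716).

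In order of level per kb, MuSCs ranked Cdkn1c, Ccnd3, Cdkn1a, Ccnd1 and Cdkn2c first. Neighbours in this order did not overlap, except Ccnd1 and Cdkn2c. Rbl2, Rb1 and Rbl1 followed at 6.74, 6.73 and 4.63 RPM per kb with overlapping ranges, and Cdkn1b and Ccnd2 came last. In myoblasts Ccnd3 and Cdkn1a led at 856 ± 187 and 819 ± 424 RPM per kb with overlapping ranges. Cdkn1c and Ccnd1 came next, also overlapping each other, and Cdkn1b was last at 0.608 ± 0.290 RPM per kb.

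Myoblast replicate 4 stood apart among the myoblasts. It had the lowest Cdkn1a, Cdkn1b, Cdkn1c, Cdkn2c and Ccnd1 and the highest Ccnd2, Ccnd3, Rb1 and Rbl1 of the 3. Its Rbl2 lay between those of replicates 5 and 6. Its summed level of 14 E2F target genes of S phase was 4373 RPM, against 2362 and 1613 RPM in replicates 5 and 6, and its summed level of 5 myogenic commitment markers was 6865 RPM, against 11195 and 15723 RPM. The same 7 members were called when it was left out. Whether this spread bears on the members was not tested.

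Of 79 other genes of the pathway 78 were tested, and 33 differed, 26 higher and 7 lower in myoblasts. The 42.3% called is close to the 42.8% over all tested genes, so that the count is no result about the pathway. Higher calls were 33.3% and lower calls 8.97% of the 78, where 22.2% and 20.6% of all genes were called. The median log2 fold change over the 78 was 0.59, beside 0.039 over all genes. In the plot of pathway counts the largest number of calls was in the list of p53 and its target genes.

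**Figure D3:**
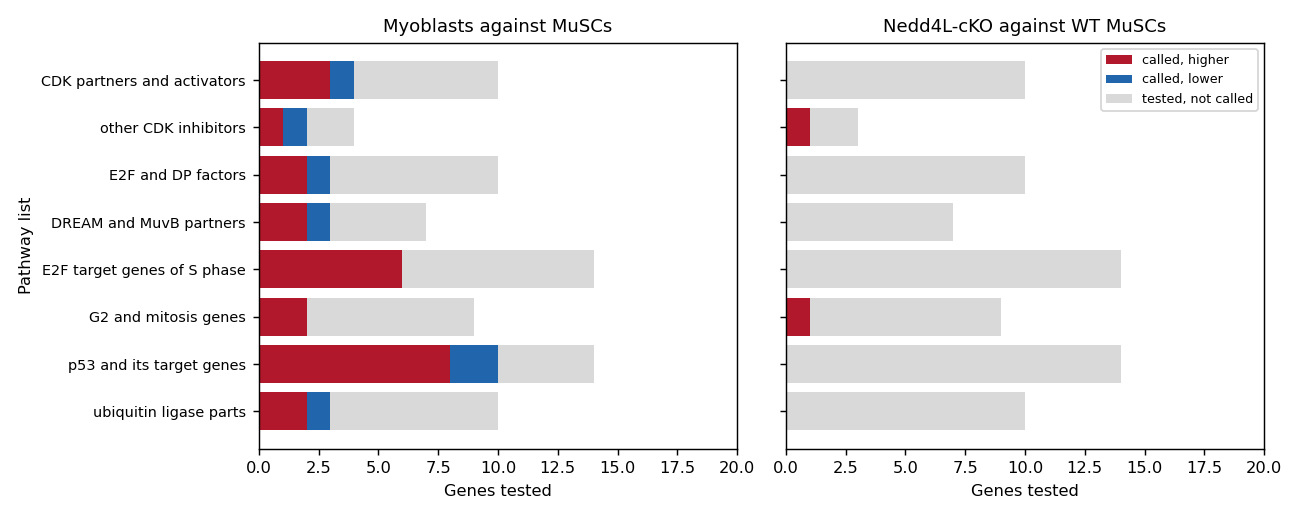
Number of tested genes in each pathway list that were called higher (red) or lower (blue) at an adjusted p of at most 0.05 or not called (grey), for myoblasts against MuSCs (left) and Nedd4L-cKO against WT MuSCs (right). In the culture comparison 10 of 14 genes in the p53 list were called, beside 42.8% of all genes. In the genotype comparison 0 of 14 were called, beside 0.784%. The lists were chosen with earlier results of these data known.

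Of the 14 genes in the p53 list, 8 rose, 2 fell and 4 did not pass the test. The share called was 71.4%, beside 42.8% of all genes, and the median log2 fold change was 1.00. The summed level of the 14 was lower in myoblasts, at 2174 to 2469 RPM against 2857 to 3053 RPM in MuSCs. Of these sums Btg2 alone made up 1481 to 1807 RPM in MuSCs and 67.6 to 84.2 RPM in myoblasts. The lower sum thus rests on Btg2 and does not describe the rest of the list. As the list was chosen with earlier results of these data known, its share is a description only. Ccng1, which encodes cyclin G1, went from 21.8, 22.8 and 30.3 RPM to 283, 398 and 267 RPM (log2 fold change 3.60, adjusted p = 9.15e-06), and Sesn2 rose by 3.35. The 2 that fell were Btg2, by 4.45 on the log2 scale, and Sesn1, by 3.05. Btg2 is an antiproliferative gene that is also an early response gene, and it went from 1481, 1807 and 1736 RPM to 75.1, 67.6 and 84.2 RPM. A list of 8 genes of the early dissociation response, which sorting itself can induce, summed to 7456 to 12404 RPM in MuSCs and 494 to 552 RPM in myoblasts. Its part in the values of Btg2 or of the members was not tested.

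The other INK4 inhibitors went in opposite directions. Cdkn2b, which encodes p15, rose from 0.856, 6.62 and 3.53 RPM to 49.0, 78.2 and 66.2 RPM (log2 fold change 4.01, adjusted p = 0.000287). Cdkn2d, which encodes p19, went from 241, 220 and 179 RPM to 51.1, 47.2 and 44.8 RPM (log2 fold change -2.13, adjusted p = 5.09e-05). Cdkn2d thus fell with its relative Cdkn2c, and neither Cdkn2a nor Cdkn3 was called.

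Downstream of the Rb family, 6 of 14 E2F target genes of S phase rose and none fell. These 42.9% stand beside 22.2% of all genes called higher and 42.8% called in either direction. The median log2 fold change of the 14 was 1.28, beside 0.039 over all genes. Of 9 genes of G2 and mitosis 2 rose (22.2%, the share of all genes called higher), among them the kinase gene Plk1 (log2 fold change 3.22, adjusted p = 0.00381). Of 10 E2F and DP factors 2 rose and 1 fell. E2f8, an atypical repressor, rose by 3.48 on the log2 scale (adjusted p = 6.52e-05), and E2f5, a usual partner of p130, fell by 1.34 (adjusted p = 0.0160). The third called factor, E2f1, was named after its value was seen and rose by 1.79. Among 7 DREAM and MuvB partners 2 rose and 1 fell, among 10 CDK partners and activators 3 rose and 1 fell, and among 10 ubiquitin ligase parts 2 rose and 1 fell. The shares called in these 3 lists and among the E2F and DP factors were 42.9%, 40%, 30% and 30%, near or below that over all genes. The ligase part that fell was Fbxo4, an F-box protein linked to cyclin D1 turnover, at -1.34.

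Marker genes were checked against the labels. Of 8 MuSC markers 6 were lower in myoblasts, with sums of 5518 to 7786 RPM against 783 to 852 RPM. All 5 markers of myogenic commitment were higher in myoblasts, and 8 markers of mature myofibers summed to 355 to 528 RPM in MuSCs and 8639 to 19254 RPM in myoblasts. Fibro-adipogenic markers summed to 748 to 895 RPM in MuSCs and 10.02 to 31.2 RPM in myoblasts. Endothelial, blood cell and Schwann markers summed to at most 45.2, 7.24 and 12.3 RPM in any of these libraries, and some of these markers, Kdr, Cldn5, Adgre1 and Cd3e among them, were not listed. Mural markers summed to 1090 to 1402 RPM in MuSCs and 1633 to 2410 RPM in myoblasts, nearly all of it Acta2, which was not called. The 1 mural marker that was called, Kcnj8, was lower in myoblasts (log2 fold change -1.97, adjusted p = 0.000244). The part of these other transcripts in the members' differences was not tested.

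Genes whose pattern was most like that of a member were looked up over the 6 libraries of the culture set, by Pearson's r of log2(RPM + 1). The 6 libraries form 2 groups, so that many genes score high, and r is given as a description. Cdkn1c was closest to Zbtb20 (r = 0.998), Fam20a and Sertad3, Ccnd2 to Crabp2, Urm1 and Tpd52l1 (r = 0.998 for the last), and Rbl2 to Cc2d2a (r = 0.993), Rad50 and Jak1. As many as 409, 1136 and 324 genes had an r over 0.95 with Cdkn1c, Ccnd2 and Rbl2.

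The second comparison asked whether the members differ between Nedd4L-cKO and WT MuSCs sorted fresh from muscle. Nedd4l itself was at 70.2, 96.4 and 66.7 RPM in WT and at 30.2, 36.3 and 22.5 RPM in Nedd4L-cKO MuSCs. The groups were apart, with a log2 fold change of -1.37 (SE 0.28, adjusted p = 0.0467 in limma). According to the paper, transcription of the gene goes on after the deletion and the product lacks catalytic activity. Gene-level RPM does not measure the loss of exon 15, so that this difference is no check of the deletion. In these MuSCs 0 of the 10 members passed an adjusted p of 0.05 in limma, where the test called 0.784% of 15304 genes. At an unadjusted p under 0.05 there were 4, namely Cdkn1a, Cdkn2c and Rb1 higher and Ccnd3 lower, beside 14.6% of all genes (7.51% higher and 7.13% lower). The same 4 had groups that did not overlap, beside 19.3% of all genes. A log2 fold change above 0 was found for 8 of the 10, beside 50.1% of all genes. Their median was 0.24, beside 0.0015 over all genes.

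**Figure D4:**
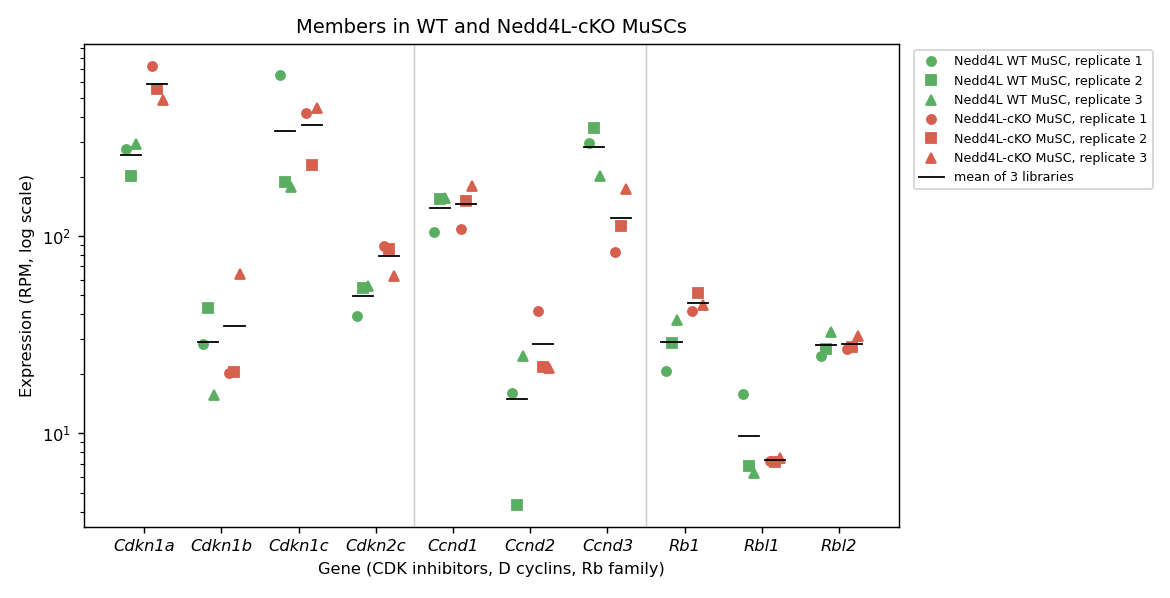
Expression of the 10 members (RPM, log scale) in 3 WT (green) and 3 Nedd4L-cKO (red) MuSC libraries, with a black line at each mean. The groups are apart for Cdkn1a, Cdkn2c, Ccnd3 and Rb1 and overlap for the other 6.

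Of the CDK inhibitors, Cdkn1a had the largest difference. It was at 276, 200 and 292 RPM in WT and at 727, 557 and 491 RPM in Nedd4L-cKO MuSCs. All 3 Nedd4L-cKO libraries lay above all WT libraries. The means of 256 ± 49.3 and 592 ± 122 RPM (SD, n = 3) gave a difference of 1.20 in log2 (SE 0.26, 95% interval 0.64 to 1.77), with an unadjusted p of 0.000579 and an adjusted p of 0.0599 in limma. It was called in 4 of 14 alternatives, over which its log2 fold change ran from 1.04 to 1.33 and its adjusted p from 0.0293 to 0.269. Among them was a block by replicate number, which joins different mice in this comparison.

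Cdkn2c was at 39.4, 54.2 and 55.7 RPM in WT and at 88.7, 85.8 and 62.8 RPM in Nedd4L-cKO MuSCs. The nearest libraries of the groups lay 55.7 against 62.8 RPM, and the log2 fold change of 0.66 (SE 0.26) had an adjusted p of 0.284. Cdkn1c varied widely among WT mice, at 654, 187 and 177 RPM, and was at 422, 230 and 446 RPM in Nedd4L-cKO MuSCs. The fitted difference in log2 was 0.33 with a 95% interval from -0.68 to 1.34 (adjusted p = 0.786). Cdkn1b was at 28.4, 43.1 and 15.7 RPM in WT and at 20.1, 20.5 and 64.3 RPM in Nedd4L-cKO MuSCs, where a single library was high, and gave an adjusted p of 0.907.

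Per kb, Cdkn1a made up 43.5% ± 14.2 of the CDK inhibitors in WT and 57.8% ± 8.30 in Nedd4L-cKO MuSCs, and Cdkn1c 47.9% ± 17.3 and 35.1% ± 8.68. Both pairs of ranges overlapped.

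Among the D cyclins, Ccnd3 was the member with the largest lower value in Nedd4L-cKO MuSCs. It was at 294, 353 and 200 RPM in WT and at 82.6, 112 and 174 RPM in Nedd4L-cKO MuSCs. The groups did not overlap, but Nedd4L-cKO replicate 3 was close to WT replicate 3. The log2 fold change was -1.22 (SE 0.32, 95% interval -1.92 to -0.53), with an unadjusted p of 0.00235 and an adjusted p of 0.108. It was called in 1 of 14 alternatives, without Nedd4L-cKO replicate 3 (adjusted p = 0.0478), and over all of them the adjusted p ran to 0.362.

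Ccnd1 was nearly level, at 104, 155 and 156 RPM in WT and 109, 150 and 178 RPM in Nedd4L-cKO MuSCs. The fitted difference in log2 was 0.07 with a 95% interval from -0.53 to 0.67 (adjusted p = 0.931), so that a change of over 1 on the log2 scale lies outside the interval. Ccnd2 was at 16.0, 4.33 and 24.5 RPM in WT and at 41.7, 21.7 and 21.3 RPM in Nedd4L-cKO MuSCs, with overlapping groups and a log2 fold change of 1.08 (SE 0.51, adjusted p = 0.361).

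The make-up of the D cyclins differed accordingly. Ccnd3 held 77.5% ± 7.62 of their summed level per kb in WT and 57.7% ± 4.84 in Nedd4L-cKO MuSCs, while Ccnd1 held 21.0% ± 6.70 and 37.4% ± 2.87. Neither pair of ranges overlapped. The summed level was 144 to 216 RPM per kb in WT and 76.1 to 136 RPM per kb in Nedd4L-cKO MuSCs. As these shares rest on the same values as the fold changes, they were not tested.

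In the Rb family, Rb1 was at 20.6, 28.6 and 37.5 RPM in WT and at 41.4, 51.2 and 44.8 RPM in Nedd4L-cKO MuSCs. The groups were apart by a small gap, and the log2 fold change was 0.68 (SE 0.28, adjusted p = 0.300). Rbl1 was at 15.9, 6.81 and 6.28 RPM in WT and at 7.23, 7.17 and 7.45 RPM in Nedd4L-cKO MuSCs. A single WT library was above all others, and the log2 fold change of -0.25 had an adjusted p of 0.805. Rbl2 was at 24.7, 26.8 and 32.4 RPM in WT and at 26.8, 27.4 and 31.1 RPM in Nedd4L-cKO MuSCs, with a log2 fold change of 0.03 and a 95% interval from -0.53 to 0.59 (adjusted p = 0.973).

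In order of level per kb, WT MuSCs of this set ranked Cdkn1c, Ccnd3 and Cdkn1a first with overlapping ranges, then Ccnd1 and Cdkn2c. Nedd4L-cKO MuSCs ranked Cdkn1a first at 308 ± 63.2 RPM per kb, then Cdkn1c and Ccnd3 at 189.5 ± 61.3 and 60.8 ± 23.0 RPM per kb (SD, n = 3), with no overlap between these neighbours. Ccnd3, Ccnd1 and Cdkn2c overlapped each with the next. Rbl1 was last by its mean in both genotypes, at 1.97 and 1.49 RPM per kb, though in WT its range overlapped that of Ccnd2.

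**Figure D5:**
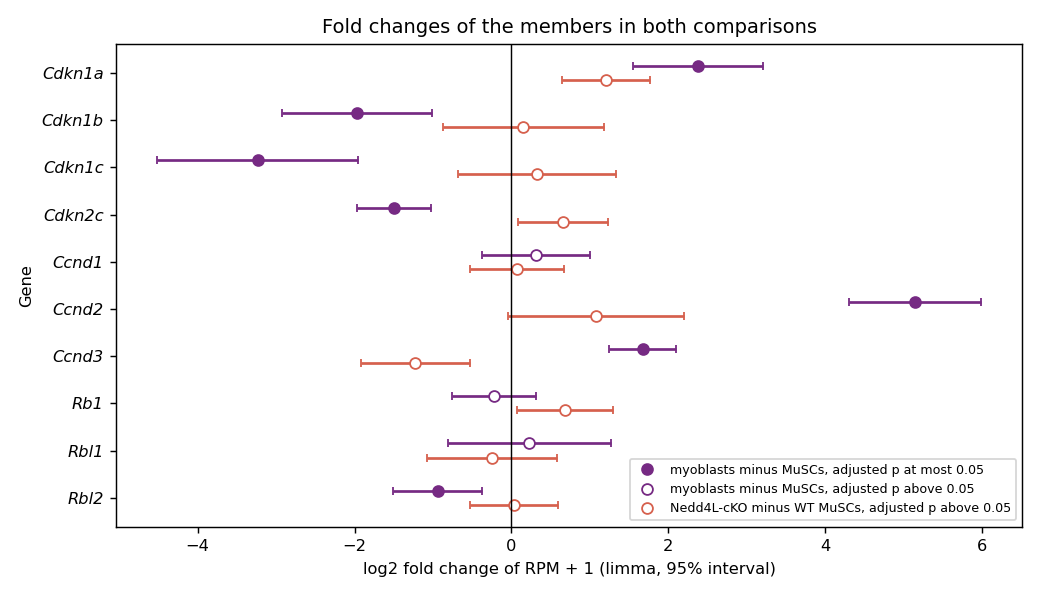
Log2 fold change of RPM + 1 with its 95% interval (limma) for each member in the culture comparison (purple) and the genotype comparison (red), with filled points at an adjusted p of at most 0.05. Ccnd2 at 5.14 and Cdkn1c at -3.24 are the extremes, and all 10 genotype points are open.

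WT replicate 1 was high not only in Rbl1 and Cdkn1c. Its 9 genes of G2 and mitosis summed to 285 RPM, against 89.0 and 84.7 RPM in WT replicates 2 and 3 and 316 to 477 RPM in Nedd4L-cKO MuSCs. Without it no member was called, and the log2 fold changes were 0.94 for Cdkn1c and 0.14 for Rbl1.

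Of the 79 pathway genes, 77 were tested and 2 were called, both higher in Nedd4L-cKO MuSCs, beside 0.523% of all genes called in that direction. Cdkn3, a phosphatase that acts on CDKs, was at 7.74, 3.64 and 3.68 RPM in WT and at 21.6, 15.6 and 22.3 RPM in Nedd4L-cKO MuSCs (log2 fold change 1.84, adjusted p = 0.0424). Ccnb1, the mitotic cyclin B1, was at 32.8, 11.04 and 9.93 RPM in WT and at 91.6, 63.4 and 71.3 RPM in Nedd4L-cKO MuSCs (log2 fold change 2.20, adjusted p = 0.0325). All 9 genes of G2 and mitosis had a log2 fold change above 0, beside 50.1% of all genes, with a median of 1.64. Of these 9, 7 were higher at an unadjusted p under 0.05 in limma, beside 7.51% of all genes. No pathway gene was called without WT replicate 2, Nedd4L-cKO replicate 1 or Nedd4L-cKO replicate 2, and 6 were called without WT replicate 1.

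The p53 list held 0 of 14 called genes here by limma, beside 0.784% of all genes. At an unadjusted p under 0.05 it held 3, 1 higher and 2 lower, beside 14.6% of all genes. A log2 fold change above 0 was found for 5 of the 14, beside 50.1% of all genes. The median was -0.17, while the log2 fold change of Cdkn1a was 1.20. Of the 14 E2F target genes of S phase 0 were called and 1 had an unadjusted p under 0.05. No gene was called among the CDK partners and activators, the E2F and DP factors, the DREAM and MuvB partners or the ubiquitin ligase parts. At an unadjusted p under 0.05 these lists held 2, 2, 0 and 0 genes, where 14.6% of all genes passed.

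No marker of mature myofibers or mural cells was called, but their summed levels did not overlap between genotypes. Mature myofiber markers summed to 242 to 475 RPM in WT and 510 to 595 RPM in Nedd4L-cKO MuSCs, with 0 of 8 called. All 8 had a log2 fold change above 0, and 5 were higher at an unadjusted p under 0.05 in limma. Mural cell markers summed to 1135 to 1859 RPM and 2128 to 3118 RPM, with 0 of 4 called. All 4 were likewise above 0, and 3 were higher at an unadjusted p under 0.05. Over all genes, 50.1% were above 0 and 7.51% were higher at that unadjusted p. MuSC markers overlapped, at 5493 to 9249 RPM and 4994 to 8295 RPM, as did markers of myogenic commitment (203 to 850 and 390 to 796 RPM) and the early dissociation response (5479 to 7166 and 6763 to 8014 RPM). Fibro-adipogenic markers overlapped too, at 1067 to 2279 RPM and 753 to 2782 RPM, and 1 of 7 was called, lower in Nedd4L-cKO MuSCs. Endothelial, blood cell and Schwann markers summed to at most 109, 6.30 and 34.2 RPM, with none called. The part of these transcripts in the values of Cdkn1a and Ccnd3 was not tested.

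Side by side, and with no test because the sets were normalized apart, the freshly sorted WT MuSCs of the 2 sets differed for some members. Ccnd2 was at 0.0479 to 1.24 RPM in the culture set and 4.33 to 24.5 RPM in the genotype set, and Ccnd3 at 509 to 573 RPM and 200 to 353 RPM. Cdkn1a was alike, at 255 to 286 RPM and 200 to 292 RPM. Differences in mice, preparation and normalization between the sets cannot be told apart.

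On GRCm39 (GENCODE M39) all 10 members are protein-coding genes, and exons of each overlap those of at least 1 gene on the opposite strand. Ccnd3 (chr17:47815767-47910624) overlaps Bysl, Rbl2 (chr8:91796664-91850492) overlaps Aktip, Ccnd1 (chr7:144483668-144493662) overlaps LTO1 and Rb1 (chr14:73421113-73563507) overlaps Rcbtb2 and Lpar6. Cdkn1a (chr17:29309936-29319701) overlaps the noncoding Dino. The counting options that the paper lists include none for strand, so that reads of such pairs within the shared stretch cannot be told apart. The overlaps are over all transcripts of GENCODE M39. The authors counted against basic transcripts of an earlier release, in which some of these partners may be absent.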

How the data were processed

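RNA-seq libraries were grouped by condition from the sample labels, and the columns of the 2 tables were matched to libraries by mouse number. The authors ran Kallisto 0.46.1 against basic GENCODE transcripts, collapsed the estimates to gene level (tximport) and normalized each comparison by itself with DESeq2. The deposited values are a signal, counts that the authors divided by normalization factors, so that read counts and depth are unknown and no count model was fitted. The design had assumed counts, and limma took the place of a count test. A further 18 per-sample columns (6 repeats and 12 of RPM) and the authors' fold changes and p-values were not used.

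RPM was obtained by dividing by the average total of the 6 libraries of a table. Genes that reached 10 normalized counts in 3 or more libraries were tested on log2(RPM + 1) with limma 3.58.1 in R 4.3.3 (trend and robust moderation, two-sided), with Benjamini-Hochberg adjustment and calls at 0.05. This scale understates changes of low genes. The fit was tested on simulated data. Myoblast and MuSC libraries of the same number came from the same mouse, but correlations of their deviations were only -0.0314, -0.00502 and 0.0180. Same-numbered WT and Nedd4L-cKO libraries came from different mice, so that a replicate block pairs no animals there. The labels give no batch or date. Lengths came from GENCODE M39 on GRCm39, a later release than the authors used, and promoters from RefSeq on GRCm38.p6. Figures were drawn with matplotlib 3.10.9 under Python 3.11.15.

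The members and the lists (79 pathway genes and 57 markers) were chosen with earlier results of these data known. The genes named were the members, Nedd4l, pathway genes past the threshold (where over 10, the 5 largest increases and 5 largest decreases with groups apart) and the 3 most alike genes of a member per class. E2f1, Acta2 and Kcnj8 were named outside this rule, as were the genes said to overlap members and the uncalled genes Cdkn2a and Cdkn3 in culture, and the p53 site was added after the values were seen. Alternatives covered the pseudocount, the filter, the scaling, the limma options, the replicate block, a stricter call and each library left out in turn.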

Additional observations from a re-analysis of the deposited data

How the results depend on the processing

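In culture, 6 or 7 of the 10 members were called under every alternative run, with 6 when at least 10 normalized counts were asked of every library (Ccnd2 was then not tested) and when a call, as an alternative chosen after seeing the data, also needed an absolute log2 change of 1 or more and 5 RPM on average (Rbl2 was then lost), and with either of the libraries on which the Rbl2 call rests left out. In the genotype comparison 1 member, Cdkn1a, was called with 10 normalized counts in every library, with each library scaled to its own total (adjusted p = 0.0463) and with TMM factors (adjusted p = 0.0484), and leaving out libraries gave 0 to 2. Pathway genes called there were 4 with 10 normalized counts in every library, 1 with own totals, 0 without trend and robust moderation, and 0 to 6 with a library left out. The cause was not tested.

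The replicate block changed no member call, with 7 in culture and 0 between genotypes, where Cdkn1a then had an adjusted p of 0.113 in limma. Between genotypes the block joins different mice by number alone, so that its values there are no check of a pairing. Called pathway genes were 32 and 3 with the block, and calls over all genes in the genotype comparison went from 120 to 76. Those calls were 213 with 10 normalized counts in every library, 50 without trend and robust moderation and 21 to 176 with a library left out. Scaling each library to its own total moved the median of all genes in culture from 0.039 to 0.14, and in the genotype comparison it moved the split of calls from 80 higher and 40 lower to 56 and 44.

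Only members without a call changed sign under any alternative run. In culture Rbl1 was -0.26 without MuSC replicate 4 and -0.029 without myoblast replicate 4, and up to 0.57 with another library left out. Between genotypes, own totals gave -0.060 for Ccnd1 and -0.096 for Rbl2. Without WT replicate 1, Ccnd1 was -0.12, Rbl2 -0.053 and Rbl1 0.14. Without Nedd4L-cKO replicate 3, Ccnd1 was -0.090, Rbl2 -0.035 and Cdkn1b -0.39, and without WT replicate 3 Cdkn1b was -0.22. The other ends of these ranges with a library left out were 0.26 for Ccnd1, 0.14 for Rbl2, 0.48 for Cdkn1b and -0.47 for Rbl1. With 3 libraries a group and depth unknown, the intervals set what could be seen, and a missed call does not show that levels are alike.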
